A study of Homo sapiens with 12 samples.

Results

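The effect of a miR-16 sponge was averaged over 2 human cell lines, MMS1 and RPMI, and the genes that changed by a similar amount in both were examined. The average is the mean of the effect in MMS1 and the effect in RPMI, each taken as sponge arrays minus control arrays on the log2 signal scale. A gene was called where limma's adjusted p for this average, over all probe sets, was under 0.05. A called gene was counted as shared where its effects in both lines had the same sign and the smaller was at least 0.5 of the larger. By that rule 554 of 19775 genes were shared, and all 12 arrays of the series were used.

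The data were 12 Affymetrix arrays in 4 groups of 3: MMS1 control, MMS1 miR16 KO, RPMI control and RPMI miR16 KO. Both lines are labelled as multiple myeloma, a cancer of plasma cells, and RPMI is also written RPMI 8226 or RPMI826. All cells carried a GFP lentivirus, with a mock sponge in the controls and a miR-16 binding sponge in the groups titled miR16 KO, which other labels call a knock down or siRNA. Stable transductants were sorted by flow cytometry, expanded, grown side by side in flasks and lysed together after a week.

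Nothing in the labels ties the 3 arrays of a group to separate cultures, so p-values measure the spread between arrays, which may be technical, and the number of arrays limits the precision. These are bulk samples, so fewer cells of a kind and less RNA per cell cannot be told apart. One array, MMS1 miR16 KO replicate 1, had a mean log2 signal of 7.84 for its 18S ribosomal RNA control probe sets against 9.56 to 11.14 on the other arrays. The same array had the lowest limma array weight, 0.377. Plasma cell markers were mixed in these lines. TNFRSF17, the BCMA receptor of plasma cells, averaged 4.46 ± 0.26 (SD, n = 12) log2 units, JCHAIN 4.20 ± 0.24 and CD38 4.91 ± 0.32, against a gene median of 6.44 and a lower bound of 4. IRF4 lay near that median at 6.47 ± 0.15, and XBP1 lay above it at 8.51 ± 0.16. HBE1, the embryonic beta-like globin of red cells, averaged 14.16 ± 0.24, and the erythroid transcription factor GATA1 averaged 9.56 ± 0.20 (SD, n = 12). SDC1, the surface proteoglycan CD138, stood at 8.90 ± 0.22. MMS1 and RPMI are used below as names only.

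MicroRNAs are short RNAs that guide Argonaute proteins to messenger RNAs, mostly through pairing of the seed near their 5′ end, and lower the level or translation of the target. A sponge is a transcript with many binding sites that takes up the microRNA, so that its targets are freed. The miR-15/16 family is known as a brake on the cell cycle and on survival genes, and one of its loci lies in the chromosome 13 region that is often lost in myeloma and chronic lymphocytic leukaemia.

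Because a site that pairs with a seed can be read by every microRNA with that seed, the family members with the seed of miR-16 are shown. RefSeq's GRCh38.p14 table gave 7 mature names from 8 loci with the same bases 2 to 8. They are printed 5′ to 3′ with those bases in capitals.
hsa-miR-16-5p: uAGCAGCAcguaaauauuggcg
hsa-miR-15a-5p: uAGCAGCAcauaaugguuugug
hsa-miR-15b-5p: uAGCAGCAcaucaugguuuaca
hsa-miR-195-5p: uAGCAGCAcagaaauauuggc
hsa-miR-424-5p: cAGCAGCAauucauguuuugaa
hsa-miR-497-5p: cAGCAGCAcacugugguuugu
hsa-miR-6838-5p: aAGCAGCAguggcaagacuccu
The miR-16 sequence is encoded at chr13:50049027-50049048 on the minus strand, in MIR16-1, and at chr3:160404754-160404775 on the plus strand, in MIR16-2. The 7 sequences share the seed and differ downstream of it. The arrays do not measure mature microRNAs, so the level of miR-16 itself was not measured.

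In the average, 443 genes rose and 1305 fell. These are 2.24% and 6.6% of all genes tested. Of the 1748 called genes, 1475 (84.4%) had the same sign in both lines, against 52.5% of all genes, but 1485 had the larger effect in MMS1. The effect in MMS1 was often much the larger: 593 called genes also had a called difference between the lines, and 921 had the same sign with a smaller effect under the limit. The 554 shared genes were 31.7% of the called genes, and 20.3% of all genes had effects of the same sign and similar size whether called or not. Since the call and the limit both use these effects, the count of shared genes is a description and no test. A call on the mean of both effects favours genes whose effects have the same sign. The 84.4% is thus a description too and no test of agreement between the lines.

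Most shared genes were lower with the sponge: 456 fell and 98 rose. Shared genes were lower in 82.3% of cases, against 71.1% of the 1194 called genes that were not shared. Their average effects were small, with a median size of 0.37 log2 units, a 1.29-fold change, and a median standard error of 0.0786. Only 7 shared genes passed 1 log2 unit and 99 passed 0.5. Of the 554, 375 had the larger effect in MMS1 and 3 had a called difference between lines, namely HBD, DAB2 and EGR1. In 473 of them the 3 sponge arrays and the 3 control arrays did not overlap in either line, 80 genes being higher and 393 lower. Over all genes 5.87% did not overlap, but the rule used these same values, so the count is a description only.

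The lines differed much in how many genes passed on their own. MMS1 alone gave calls for 12.4% of all genes and RPMI alone for 0.217%, while 5.9% had a called difference between the lines. Of the shared genes, 305 were called in MMS1, 14 in RPMI and 247 in neither line, so for those 247 the call rests on combining both lines. Over all genes, the effects in the 2 lines were hardly related, with Pearson's r = 0.05 and Spearman's rho = 0.07 across 19775 genes, which are not independent replicates. The top 1% of effect sizes began at 1.24 log2 units in MMS1 and at 0.57 in RPMI.

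**Figure D1:**
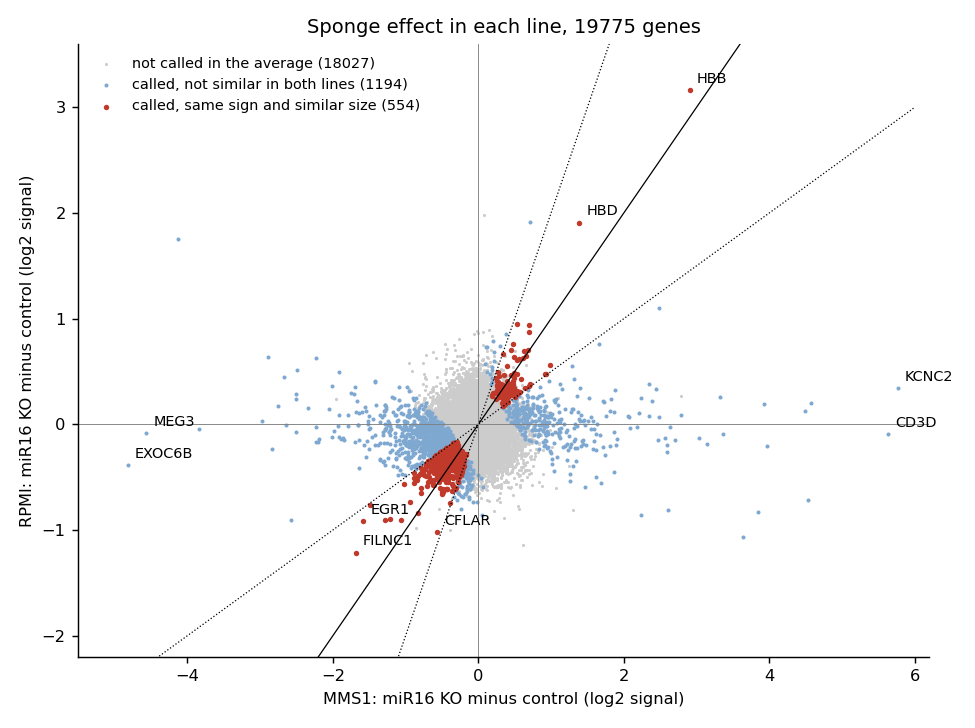
Log2 change of each of the 19775 genes with the sponge in MMS1 (horizontal) and in RPMI (vertical); red points are the 554 shared genes, blue points the 1194 called genes that were not shared and grey points the genes not called. The solid line marks equal effects and the dotted lines the limit of 0.5; HBB and HBD stand apart at the upper right, while CD3D and KCNC2 changed in MMS1 with little change in RPMI.

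The leading genes each way were taken from the shared genes whose groups did not overlap in either line. A lack of overlap in a leading gene was thus fixed by that choice and is a description only. The shared genes that rose were led by a pair of adult globins. HBB encodes beta-globin of adult hemoglobin. Its log2 signals were 8.58, 8.89 and 8.82 on the MMS1 control arrays, 11.69, 11.64 and 11.68 on the MMS1 sponge arrays, 10.60, 10.52 and 10.51 on the RPMI control arrays and 13.67, 13.76 and 13.70 on the RPMI sponge arrays. Every sponge array was high and the groups lay far apart in both lines. HBB rose by 2.91 in MMS1 and 3.16 in RPMI, an average of 3.03 ± 0.071 (SE), or 8.19-fold (limma adjusted p = 3.65e-11). Among its 3 other probe sets, 2 were called in the same direction and the average ran from -0.04 to 3.31. The -0.04 came from the only one whose identifier carries no suffix for probes shared between transcripts, and its mean signal was 7.38 against 11.17 for the probe set used.

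HBD encodes delta-globin, the minor adult beta-like chain. Its signals were 7.38, 7.30 and 7.26 in MMS1 controls, 8.81, 8.64 and 8.68 in MMS1 with the sponge, 8.82, 8.75 and 8.77 in RPMI controls and 10.71, 10.70 and 10.65 in RPMI with the sponge. The groups did not overlap in either line. HBD rose by 1.39 in MMS1 and 1.91 in RPMI, on average by 1.65 ± 0.0647 (SE; limma adjusted p = 8.82e-09), and the difference between lines was called too (0.52, limma adjusted p = 0.0362). HBB and HBD are near-identical neighbours on the beta-globin cluster, so probes of one may read the other and their separate values are uncertain. They were also the only shared genes that rose and were called in each line on its own.

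The remaining globins did not follow them. Of 6 measured globin genes, 2 rose and 3 fell in the average, 3 with a called difference between lines. HBE1 fell by 0.35 on average (limma adjusted p = 0.00377), 0.21 in MMS1 and 0.49 in RPMI, below the limit for similar size. The call for HBE1 was lost with the mean over its probe sets (-0.13, adjusted p = 0.187). HBZ, embryonic zeta-globin, fell by 1.94 in MMS1 and changed by -0.01 in RPMI. Of 30 measured erythroid regulators and heme enzymes, 4 rose (13.3% against 2.24% of all genes) and 14 fell (46.7% against 6.6%). A difference between lines was called for 14 (46.7% against 5.9% of all genes), and their median change was -0.40 in MMS1 and -0.07 in RPMI. Among them only NFE2 and GATA1, transcription factors of red cell genes, were shared. NFE2 fell by 0.84 in MMS1 and 0.53 in RPMI, and GATA1 by 0.41 and 0.33. KLF1, an activator of beta-globin, fell by 1.85 in MMS1 and had an effect of -0.14 in RPMI. The summed linear signal of the globin list moved from 38936 to 40432 in MMS1 controls to 26063 to 27675 with the sponge, and from 30095 to 30873 in RPMI controls to 37104 to 38369 with the sponge, in opposite directions in the 2 lines.

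After the globins, the shared genes that rose were changed by under 1 log2 unit and their control arrays differed more than those of the leading genes that fell. The median SD over the 10 leading genes was 0.26 in MMS1 controls and 0.30 in RPMI controls, against 0.09 and 0.07 over the 12 leading genes that fell. LINC00869, a long non-coding RNA, had signals of 7.43, 7.48 and 6.66 in MMS1 controls and 8.12, 7.89 and 7.65 with the sponge, and of 6.77, 7.22 and 7.28 in RPMI controls and 7.66, 8.11 and 8.13 with the sponge. The groups did not overlap, and the lowest control arrays were MMS1 control 3 and RPMI control 1. Its average was 0.79 ± 0.158 (SE; limma adjusted p = 0.00903), with effects of 0.70 in MMS1 and 0.88 in RPMI. The mean over its probe sets gave 0.24 and an adjusted p of 0.0563.

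OTP, a homeobox factor known from the hypothalamus, had 8.13, 8.12 and 7.41 in MMS1 controls, 8.57, 8.70 and 8.46 with the sponge, 7.64, 7.99 and 8.16 in RPMI controls and 8.42, 8.64 and 8.86 with the sponge. Again the groups did not overlap and the same control arrays were lowest. OTP rose by 0.70 ± 0.138 (SE) on average, with 0.69 in MMS1 and 0.71 in RPMI (limma adjusted p = 0.0084).

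COX1, the mitochondrially encoded subunit of cytochrome c oxidase, had 13.51, 13.55 and 12.65 in MMS1 controls, 14.01, 13.84 and 13.77 with the sponge, 12.88, 13.48 and 13.47 in RPMI controls and 13.88, 13.96 and 14.08 with the sponge. The groups did not overlap, with MMS1 control 3 and RPMI control 1 lowest once more. Its average was 0.66 ± 0.156 (SE; limma adjusted p = 0.0214), and leaving out RPMI miR16 KO replicate 3 gave an adjusted p of 0.0521.

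SGCE, epsilon-sarcoglycan of the membrane complex around dystrophin, had 5.05, 5.30 and 5.17 in MMS1 controls, 5.91, 5.68 and 5.92 with the sponge, 4.98, 4.76 and 5.47 in RPMI controls and 5.93, 5.50 and 5.72 with the sponge. These levels lay below the gene median, and in RPMI the highest control at 5.47 nearly met the lowest sponge array at 5.50. SGCE rose by 0.65 ± 0.121 (SE; limma adjusted p = 0.00554), by 0.66 in MMS1 and 0.65 in RPMI.

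The 6 next genes by size of the smaller effect were H2BW2, a testis histone variant, the antisense RNA ATXN1-AS1, RNF40, a ubiquitin ligase for histone H2B, AWAT1, an acyltransferase of wax synthesis, TMEFF2, a transmembrane protein, and LOXL4, a lysyl oxidase of the matrix. Their averages ran from 0.56 for LOXL4 to 0.77 for ATXN1-AS1. Some of them had levels near the lower bound of 4 and well below the gene median of 6.44. The control means in MMS1 and RPMI were 4.73 and 4.70 for H2BW2 and 4.70 and 4.37 for AWAT1. For ATXN1-AS1 they were 5.28 and 5.35, and its other probe set gave -0.01. The call of RNF40 was lost without MMS1 miR16 KO replicate 3, RPMI control replicate 1, RPMI control replicate 3 or RPMI miR16 KO replicate 2, with adjusted p between 0.0506 and 0.0582, and the mean over its probe sets gave 0.01. The 2 other probe sets of RNF40 had averages of -0.42 and -0.13, and 1 of them was called lower, so its direction is uncertain. Among the 10 leading genes other than HBB and HBD, MMS1 control 3 was the lowest of its group for 7 and RPMI control 1 for 6. Over all 98 shared genes that rose these were the lowest for 53 (54.1%) and 44 (44.9%), against 31.3% and 46.7% of all genes. Without MMS1 control replicate 3 the count of shared genes that rose was 49, and without RPMI control replicate 1 it was 55. Such a loss was not particular to these arrays. The count was 49 without RPMI miR16 KO replicate 2, 56 without MMS1 control replicate 1 and 64 without MMS1 miR16 KO replicate 3. The part of single arrays in the rise was not tested.

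Among the shared genes that fell, the leading one was a non-coding RNA. FILNC1, known from the response to energy stress, had 5.79, 5.90 and 5.39 in MMS1 controls, 4.01, 4.0 and 4.0 with the sponge, 6.97, 7.10 and 6.90 in RPMI controls and 5.89, 5.83 and 5.62 with the sponge. The MMS1 sponge arrays lay close to the lower bound of 4, so the fall there may be understated, and the groups did not overlap in either line. FILNC1 had effects of -1.69 in MMS1 and -1.21 in RPMI, an average of -1.45 ± 0.0938 (SE; limma adjusted p = 1.11e-06).

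EGR1, a zinc finger factor switched on within minutes by growth signals, had 10.42, 10.48 and 10.59 in MMS1 controls, 8.76, 8.95 and 9.03 with the sponge, 11.08, 10.75 and 10.71 in RPMI controls and 9.92, 9.81 and 10.07 with the sponge. All sponge arrays were low in both lines and no groups overlapped. EGR1 fell by 1.58 in MMS1 and 0.91 in RPMI, 2.37-fold on average (limma adjusted p = 3.03e-06), and its 2 other probe sets were called in the same direction. The difference between lines was 0.67, with a limma adjusted p of 0.05 after rounding and just under the threshold.

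EMB, the membrane glycoprotein embigin, had 7.97, 7.90 and 8.07 in MMS1 controls, 7.05, 6.46 and 6.58 with the sponge, 7.0, 7.20 and 7.18 in RPMI controls and 5.96, 6.56 and 6.13 with the sponge. Every sponge array lay below every control array of its line. Its average was -1.09 ± 0.12 (SE; limma adjusted p = 0.000139), with -1.28 in MMS1 and -0.91 in RPMI.

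PTPRB, a receptor tyrosine phosphatase known from blood vessels, had 7.02, 7.20 and 7.5 in MMS1 controls, 6.19, 5.97 and 6.38 with the sponge, 6.51, 6.34 and 6.85 in RPMI controls and 5.94, 5.94 and 5.09 with the sponge. RPMI miR16 KO 3 was the lowest of the 12 arrays, and no groups overlapped. The average was -0.98 ± 0.157 (SE; limma adjusted p = 0.00218).

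CAVIN2, a coat protein of caveolae, had 7.60, 7.63 and 7.70 in MMS1 controls, 6.67, 6.04 and 6.59 with the sponge, 7.57, 7.68 and 7.47 in RPMI controls and 6.73, 6.74 and 6.55 with the sponge. Controls of both lines started from the same level and the sponge arrays lay apart from them. CAVIN2 fell by 1.21 in MMS1 and 0.90 in RPMI, 2.08-fold on average (limma adjusted p = 5.78e-05), and its other probe set was called the same way.

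GASK1B, a Golgi-associated kinase-like protein, had 9.19, 9.20 and 9.05 in MMS1 controls, 8.26, 8.41 and 8.28 with the sponge, 8.84, 8.78 and 8.86 in RPMI controls and 7.92, 8.10 and 7.95 with the sponge. The effects of -0.83 in MMS1 and -0.84 in RPMI were nearly equal, with a ratio of 0.99 between them. The average was -0.83 ± 0.0684 (SE; limma adjusted p = 1e-05), although its other probe set gave -0.12 and was not called.

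**Figure D2:**
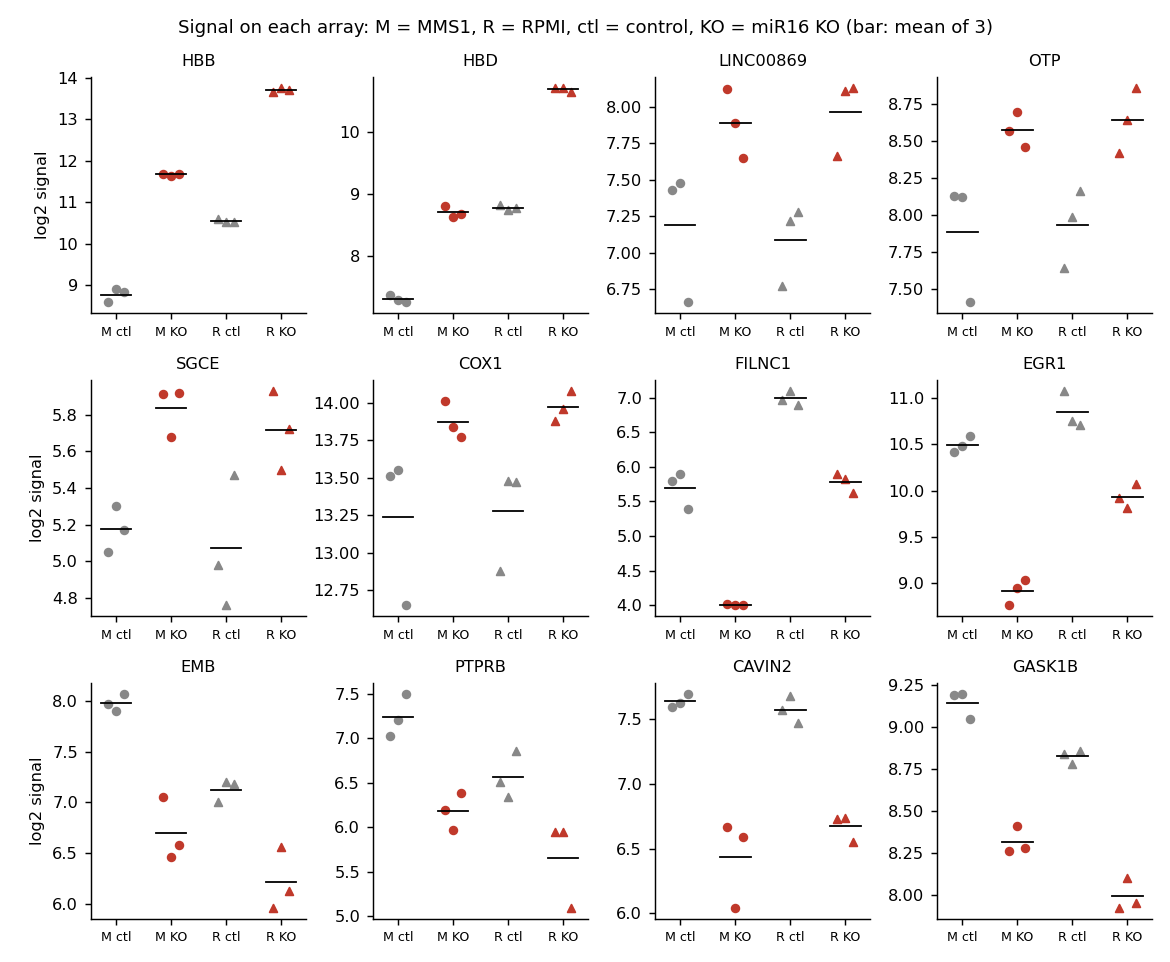
Log2 signal on each of the 12 arrays for the 6 leading shared genes that rose and the 6 that fell; M is MMS1, R is RPMI, grey points are controls, red points sponge arrays and the bar the mean of 3. HBB and HBD rose well clear of the spread, and LINC00869, OTP and COX1 have 1 low control array in each line. In the 6 genes that fell the sponge arrays lie below the controls in both lines, as the choice of leading genes required.

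The next 6 by size of the smaller effect were DAB2, an endocytic adaptor, RNFT2, a RING finger membrane protein, PTPRR, a phosphatase that acts on MAP kinases, PFAS, an enzyme of purine synthesis, ASPM, a spindle pole protein, and SHC1, an adaptor of receptor tyrosine kinases. DAB2 fell by 1.49 in MMS1 and 0.76 in RPMI (average limma adjusted p = 1.02e-05), and 5 of its 6 other probe sets had the same direction. SHC1 fell by 0.61 and 0.58. Of these 12 leading genes that fell, 11 kept their call under each of the alternatives that measured them, the exception being DAB2 with its plain probe set at 0.11. Of the 12 leading genes that rose, 8 did.

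Genes called in each line on its own, in the same direction, were few. There were 13, of which HBB and HBD rose and 11 fell, and 12 of the 13 were shared. The 11 were FILNC1, EGR1, CAVIN2, GASK1B, DAB2, RNFT2, PTPRR, CFLAR, NDRG1, ST6GAL1 and ACSM3. CFLAR encodes c-FLIP, an inhibitor of caspase-8, and had 8.89, 8.92 and 8.94 in MMS1 controls, 8.42, 8.35 and 8.28 with the sponge, 8.81, 9.01 and 8.91 in RPMI controls and 8.07, 7.84 and 7.76 with the sponge. Its effect was -1.02 in RPMI and -0.56 in MMS1, and the difference between lines was not called (limma adjusted p = 0.107). NDRG1, a stress-response gene, fell by 0.50 in MMS1 and 0.64 in RPMI, and ST6GAL1, a sialyltransferase, by 0.49 and 0.62. ACSM3, a mitochondrial acyl-CoA synthetase, fell by 2.58 in MMS1 and 0.90 in RPMI and was not shared. The count of 13 became 75 without MMS1 miR16 KO replicate 1 and between 6 and 8 without any of 9 other arrays, namely all MMS1 controls, all RPMI controls and all RPMI sponge arrays. A further 10 genes were called in both lines with opposite signs.

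The limit of 0.5 fell in a continuous range of genes. Just inside it were CDKN1C, CSRP2 and GCNT7 among genes that rose and CBS, SP100 and WDR5B among genes that fell. CDKN1C, an inhibitor of cyclin-dependent kinases, had 0.33 in MMS1 and 0.67 in RPMI, and CBS, an enzyme of cysteine synthesis, had -0.70 and -0.35. Just outside it were DLL1 (0.48 and 0.23), GOLGA4-AS1 (0.48 and 0.23) and TUBGCP5 (0.34 and 0.16) and, among genes that fell, DDX20 (-0.18 and -0.37), NETO2 (-0.61 and -0.30) and TNNT1 (-0.31 and -0.63). The largest averages among called genes that were not shared came from MMS1. KCNC2, a potassium channel subunit, had 5.77 in MMS1 and 0.34 in RPMI, and CD3D, a subunit that signals for the T cell receptor, had 5.64 and -0.10. EXOC6B, a subunit of the exocyst, had -4.82 and -0.39, and the imprinted long non-coding RNA MEG3 had -4.57 and -0.09. The same held for MUC19 (4.58 and 0.20), NLRP7 (4.49 and 0.13) and MFNG (-3.84 and -0.05).

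Other probe sets of the shared genes give a reading that did not enter the choice of members, although it comes from the same arrays. For shared genes that fell, 505 of 658 other probe sets (76.7%) had the same direction in the average and 158 (24%) were called the same way, against 63.9% and 7.66% over all genes with a negative average. For shared genes that rose, 67 of 113 (59.3%) had the same direction and 10 (8.85%) were called the same way, against 54.1% and 3.71% over all genes with a positive average. Called genes that were not shared had 74.4% and 26.9% where they rose and 76.1% and 28.8% where they fell. The falling shared genes were thus close to other called genes that fell, and the rising ones lay nearer to all genes in direction than to other called genes that rose.

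**Figure D3:**
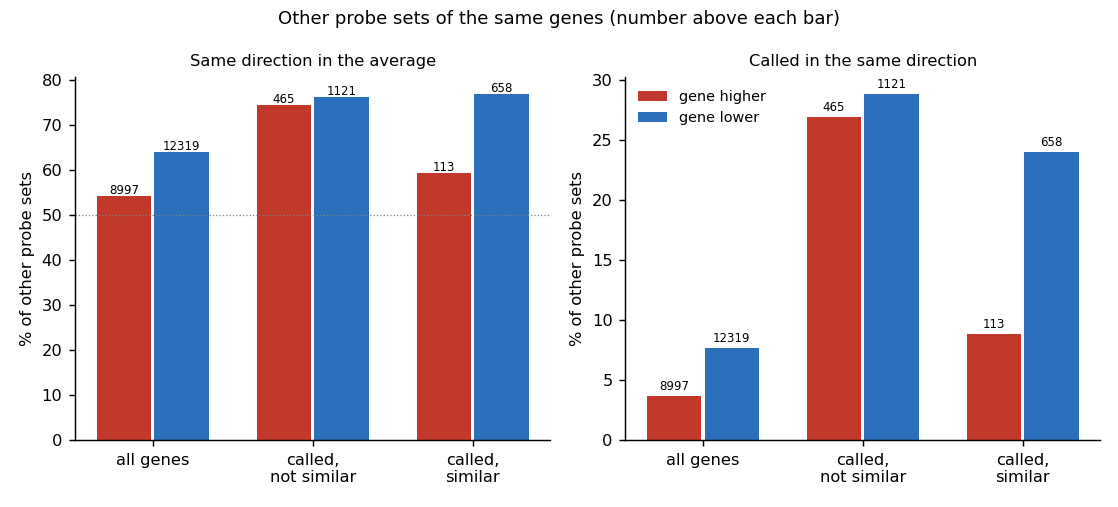
Percent of other probe sets of the same genes that had the same direction as the gene's chosen probe set (left) or were called in that direction (right), for all genes, for called genes that were not shared and for shared genes, red for genes that rose and blue for genes that fell, with the number of probe sets above each bar. Shared genes that rose reach 59.3% on the left, close to the 54.1% of all genes, while shared genes that fell reach 76.7%.

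The genes that rose and those that fell also differed in level and kind. The rule did not name level or kind, but the spread between arrays enters the call. The mean signal had a median of 6.73 log2 units in shared genes that rose and 7.78 in those that fell, against 6.44 over all genes. Of the genes that rose, 31.6% lay below 6 log2 units, of those that fell 7.68% and of all genes 38.2%. Long non-coding RNAs made up 15.3% of the shared genes that rose (15 of 98), 2.19% of those that fell (10 of 456) and 13.5% of all genes. The median SD was 0.12 in MMS1 controls and 0.11 in RPMI controls for the genes that rose, and 0.08 and 0.07 for those that fell. In MMS1 sponge arrays it was 0.12 and 0.14. Over all genes it was 0.11 in MMS1 controls, 0.12 in RPMI controls and 0.16 in MMS1 sponge arrays. The genes that rose thus had control spreads close to those of all genes.

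Genes of mitosis had similar median effects in both lines. Of 30 measured, 8 fell and 0 rose in the average by limma (26.7% against 6.6% of all genes). At an unadjusted p under 0.05, 19 fell and 0 rose, against 3119 and 1443 of all 19775 genes. In MMS1 alone 7 were called, against 12.4% of all genes. A difference between lines was called for 0 of the 30, against 5.9% of all genes. At the unadjusted threshold it was found for 4, against 3968 of all 19775 genes. With 30 genes these counts of differences cannot show that the lines are alike. Whether called or not, 24 had negative effects in both lines and 0 had positive effects in both, against 6175 and 4215 of all genes. The median change was -0.21, with -0.22 in MMS1 and -0.20 in RPMI, against -0.02, -0.04 and -0.02 over all genes. The shared members were ASPM, BUB1, PLK1, BIRC5, CCNB1 and CCNA2. The number that fell ran from 3 to 13 when single arrays were left out and from 5 to 15 under the other alternatives, and no member rose in any of these. It moved by over 1.5 times without MMS1 control replicate 1 or 3, any MMS1 miR16 KO replicate, RPMI control replicate 2 or 3, or RPMI miR16 KO replicate 2 or 3. The mitosis list was bright, with a median level of 8.74 log2 units against 6.44 over all genes. Above the upper quartile of gene levels lay 25 of its 30 genes. So did 28 of 36 DNA replication genes, 18 of 24 NRF2 targets, 30 of 30 respiratory chain and 31 of 31 proteasome subunits. In the interferon list 4 of 28 did. The part of level in the shares called was not tested.

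ASPM had 7.53, 7.52 and 7.82 in MMS1 controls, 7.12, 6.81 and 6.82 with the sponge, 8.33, 8.32 and 8.35 in RPMI controls and 7.68, 7.72 and 7.84 with the sponge. No groups overlapped, and the effects of -0.70 and -0.59 were close. The average of ASPM was -0.65 ± 0.0835 (SE; limma adjusted p = 0.000506). BUB1, a kinase of the spindle checkpoint, had 9.83, 9.86 and 9.82 in MMS1 controls, 9.54, 9.13 and 9.12 with the sponge, 10.37, 10.48 and 10.47 in RPMI controls and 10.09, 10.22 and 10.05 with the sponge. Its sponge arrays were low in both lines without overlap, and it fell by 0.45 on average (limma adjusted p = 0.00622).

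PLK1, the kinase that drives mitotic entry, had 8.64, 8.37 and 8.62 in MMS1 controls, 8.17, 8.01 and 7.96 with the sponge, 8.19, 8.18 and 8.08 in RPMI controls and 7.92, 7.96 and 7.77 with the sponge. It fell by 0.49 in MMS1 and 0.27 in RPMI, without overlap (average limma adjusted p = 0.00973). BIRC5, the survivin subunit of the chromosomal passenger complex, fell by 0.30 on average (adjusted p = 0.0266). CCNB1 and CCNA2, the B and A cyclins of CDK1, fell by 0.34 and 0.25 (limma adjusted p = 0.0277 and 0.0309). AURKA, a kinase of the spindle poles, was called but not shared, with -0.65 in MMS1 and -0.06 in RPMI. CDC25C, which activates CDK1, was likewise not shared, with -0.52 and -0.08, and its call was lost when any 1 of 8 arrays was left out, with adjusted p from 0.0501 to 0.0706. CDK1 itself had an average of -0.12 and was not called (limma adjusted p = 0.426).

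**Figure D4:**
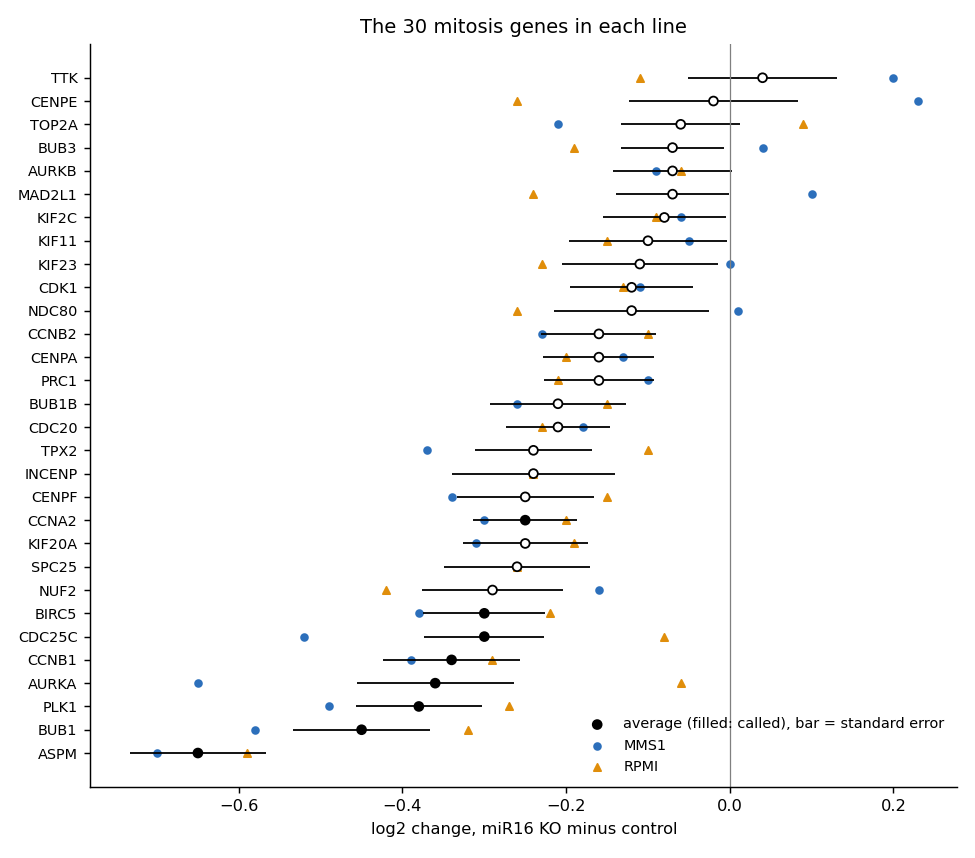
Log2 change of each of the 30 mitosis genes with the sponge in MMS1 (blue), in RPMI (orange triangles) and on average (black, filled where called, with its standard error). The 8 filled points all lie below 0, and for 24 genes both lines lie below 0.

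The promoters of 3 of these genes are shown because genes of this list are known to share cell cycle elements. The 150 bases before each start site come from RefSeq's GRCh38.p14 table, read on the strand of the gene, with every match to the CCAAT motif and to the hexamer TTTGAA or its variant TTTAAA in capitals, whichever strand holds it.
ASPM, chr1:197146670-197146819, minus strand: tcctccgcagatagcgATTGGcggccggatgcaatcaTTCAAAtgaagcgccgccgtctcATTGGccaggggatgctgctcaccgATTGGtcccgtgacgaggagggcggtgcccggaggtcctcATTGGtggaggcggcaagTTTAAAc
PLK1, chr16:23678739-23678888, plus strand: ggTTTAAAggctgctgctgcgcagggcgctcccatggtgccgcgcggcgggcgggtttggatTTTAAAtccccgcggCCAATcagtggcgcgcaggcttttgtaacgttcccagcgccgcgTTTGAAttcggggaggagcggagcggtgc
CCNB1, chr5:69167000-69167149, plus strand: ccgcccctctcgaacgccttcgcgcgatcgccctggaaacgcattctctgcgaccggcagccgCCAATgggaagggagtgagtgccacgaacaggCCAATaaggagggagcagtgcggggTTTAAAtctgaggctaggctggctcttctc
CCAAT is the letter core bound by the trimeric factor NF-Y, and TTTGAA or TTTAAA is the core of the CHR element of late cell cycle promoters. The genes shown hold both kinds of motif, while the shared members BUB1 and CCNA2 hold CCAAT and neither hexamer. Of the 25 mitosis genes with a promoter in the table, 17 (68.0%) held CCAAT within 150 bases and 15 held TTTGAA or TTTAAA. The shares were 24.4% and 12.8% of 27305 promoters of that length. Over the 394 shared genes that fell and had a promoter in the table, the shares were 28.7% and 8.12%, against 25.9% and 9.41% of the genes tested. GGGCGG, the core of the GC box, was found in 63.5% of those promoters, in 51.4% of the 72 promoters of shared genes that rose and in 50.1% of the genes tested. A match is a description of the letters and no evidence of a bound factor.

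DNA replication genes had a lower median effect in MMS1 than in RPMI. Of 36 measured, 14 fell (38.9% against 6.6% of all genes) and 1 rose (2.78% against 2.24%) in the average. A difference between lines was called for 9 (25.0% against 5.9% of all genes). Their median was -0.35 in MMS1 and -0.06 in RPMI, and only MCM5 and RFC3 were shared. MCM5, a subunit of the replicative helicase, fell by 0.42 in MMS1 and 0.41 in RPMI, and RFC3, a subunit of the clamp loader, by 0.35 and 0.31. MCM6, CDC45 and MCM10, which also belong to the helicase machinery, had -0.95, -0.95 and -0.83 in MMS1 and -0.01, -0.04 and -0.10 in RPMI. TK1, thymidine kinase, had -0.97 in MMS1 and 0.09 in RPMI. The count of 14 ran from 7 to 18 when single arrays were left out. The lowest count of 7 and the highest of 18 came from leaving out RPMI control replicate 3 and MMS1 miR16 KO replicate 1. It was 8 or 9 without MMS1 control replicate 1 or 3, MMS1 miR16 KO replicate 2 or 3, RPMI control replicate 2 or RPMI miR16 KO replicate 3.

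MYC and ribosome biogenesis genes had a lower median effect in RPMI than in MMS1. Of 23 measured, 5 fell (21.7% against 6.6% of all genes) and 0 rose by limma (11 and 1 at an unadjusted p under 0.05), 4 of the 5 being shared, with a median of -0.02 in MMS1 and -0.28 in RPMI. MYC had 10.59, 10.48 and 10.57 in MMS1 controls, 10.20, 10.15 and 10.04 with the sponge, 11.32, 11.36 and 11.43 in RPMI controls and 10.87, 10.93 and 10.92 with the sponge. The groups did not overlap in either line. MYC fell by 0.41 and 0.47, 1.36-fold on average (limma adjusted p = 0.00126). WDR12, a 60S assembly factor, fell by 0.54 on average (limma adjusted p = 0.00138), NCL, nucleolin, by 0.38 (limma adjusted p = 0.0128) and BYSL, a 40S assembly factor, by 0.28 (limma adjusted p = 0.027). For NCL the plain probe set gave 0.20 and the mean over probe sets -0.09, neither of them called. The count of 5 became 8 without MMS1 miR16 KO replicate 1.

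Immediate early genes, which growth signals switch on without new protein synthesis, moved both ways. Of 25 measured, 3 rose (12% against 2.24% of all genes) and 5 fell (20.0% against 6.6%). A difference between lines was called for 5 (20.0% against 5.9%), and EGR1, IER2 and MYC were shared, all lower. IER2 had 11.09, 10.99 and 11.09 in MMS1 controls, 10.38, 10.36 and 10.18 with the sponge, 10.93, 10.86 and 10.84 in RPMI controls and 10.46, 10.38 and 10.36 with the sponge. All groups lay apart, and IER2 fell by 0.75 and 0.48 (average limma adjusted p = 0.000139). JUNB fell by 1.07 in MMS1 and had -0.43 in RPMI, while JUN rose by 1.02 in MMS1 and had 0.10 in RPMI, each with a called difference between lines.

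The EGR1 promoter is shown because this gene had the largest shared fall among protein-coding genes and is known to be driven through CArG boxes, the sites of serum response factor. The 150 bases before its start site, at chr5:138465329-138465478 on the plus strand, are printed with the CArG boxes in capitals.
EGR1: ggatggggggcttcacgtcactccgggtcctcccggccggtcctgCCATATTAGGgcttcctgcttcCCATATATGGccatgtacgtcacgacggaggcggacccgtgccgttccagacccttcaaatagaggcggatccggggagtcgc
The boxes lie 105 to 96 and 83 to 74 bases before the start. Within the same distance 0.765% of all 27305 promoters and 0.787% of those of the genes tested held a CArG box. So did 1.78% (7 of 394) of the shared genes that fell and 0 of the 72 that rose.

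Among targets of NRF2, the factor of the antioxidant response, 9 of 24 measured fell and 0 rose by limma (37.5% against 6.6% of all genes lower, and 13 and 2 genes at an unadjusted p under 0.05), with a median of -0.07 in MMS1 and -0.24 in RPMI. The shared members were TXNRD1, AKR1C1, SQSTM1 and ME1. TXNRD1, thioredoxin reductase, had 9.77, 9.75 and 9.79 in MMS1 controls, 9.62, 9.28 and 9.19 with the sponge, 10.21, 10.24 and 10.34 in RPMI controls and 9.85, 9.77 and 9.70 with the sponge. Its groups did not overlap, and it fell by 0.40 and 0.49 (average limma adjusted p = 0.00531). KEAP1, the repressor of NRF2, is a member of this list and counts among the 9. It fell by 0.64 on average (limma adjusted p = 6.75e-05), with a ratio of 0.47 between the lines. The count of 9 ran from 4 to 12 when single arrays were left out, and moved by over 1.5 times without any array other than MMS1 control replicate 2 or MMS1 miR16 KO replicate 1. AKR1C1 belongs to a family of near-identical enzymes, so its value may include the others.

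Of 37 measured published targets of miR-16, 4 were shared (10.8% against 2.8% of all genes). In the average 3 rose (8.11% against 2.24%) and 8 fell (21.6% against 6.6%), and the median was -0.05, with 0.04 in MMS1 and -0.04 in RPMI. None of those that rose was shared. They were JUN, VEGFA and ANLN, with averages of 0.56, 0.33 and 0.55 and RPMI effects of 0.10, 0.14 and -0.04. The call of VEGFA was lost without MMS1 control replicate 1 or 2, RPMI control replicate 1 or 3 or RPMI miR16 KO replicate 1 or 2, with adjusted p from 0.0565 to 0.0655. The 4 shared targets, UNG, CCND2, HMGA1 and CDC25A, all fell. UNG, a DNA repair glycosylase, had 8.64, 8.44 and 8.50 in MMS1 controls, 8.27, 8.04 and 7.99 with the sponge, 8.42, 8.52 and 8.49 in RPMI controls and 8.10, 8.10 and 7.94 with the sponge. Its groups did not overlap, and its effects of -0.42 and -0.43 were almost the same (average limma adjusted p = 0.00416).

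CCND2, a cyclin of G1, fell by 0.46 in MMS1 and 0.25 in RPMI (average limma adjusted p = 0.0173). HMGA1, a chromatin protein, fell by 0.39 and 0.28 (average limma adjusted p = 0.0183), and the call was lost without MMS1 control replicate 1 (adjusted p = 0.0527). CDC25A, a phosphatase that activates G1 kinases, fell by 0.35 and 0.34 (average limma adjusted p = 0.0247), and its call was lost when any 1 of 8 arrays was left out (MMS1 control replicates 1 and 3, MMS1 miR16 KO replicate 2, the 3 RPMI controls and RPMI miR16 KO replicates 1 and 3), with adjusted p from 0.0511 to 0.0654. CDK6, PURA, ETS1 and IKBKB fell without being shared, with MMS1 effects of -0.55, -0.69, -1.35 and -1.30 and RPMI effects of -0.22, -0.04, -0.18 and -0.10. The mean over probe sets ended the calls of ETS1 (-0.19) and PURA (-0.14), and that of IKBKB was lost without MMS1 control replicate 2 or 3 or RPMI miR16 KO replicate 2 or 3, with adjusted p from 0.0501 to 0.0546. BCL2, the survival factor best known as a miR-16 target, had an average of -0.05 ± 0.0707 (SE) and was not called (limma adjusted p = 0.769). DLEU2 and SMC4, host genes of the miR-15/16 loci, had -0.25 and 0.07 and were not called (limma adjusted p = 0.103 and 0.705). With brighter probe sets only, DLEU2 was called lower (-0.25, limma adjusted p = 0.0349).

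Smaller sets of shared genes came from other pathways. In the TGF-beta and BMP response, 2 of 24 genes rose (8.33% against 2.24% of all genes) and 4 fell (16.7% against 6.6%), and ID3, BAMBI and ID1 were shared. ID3, an inhibitor of helix-loop-helix factors, rose by 0.50 in MMS1 and 0.31 in RPMI (average limma adjusted p = 0.00622), while its relative ID1 fell by 0.37 and 0.35 (average limma adjusted p = 0.00623). BAMBI, a decoy receptor of the pathway, fell by 0.56 and 0.32. ID2 had -1.23 in MMS1 and -0.07 in RPMI, and SOSTDC1, a BMP antagonist, had 4.53 and -0.71 with its MMS1 controls close to the lower bound. Among 30 nuclear-encoded respiratory chain subunits, 4 fell (13.3% against 6.6% of all genes) and 0 rose by limma (6 and 2 at an unadjusted p under 0.05), with NDUFA10, NDUFB3 and SDHA shared and medians of 0.12 in MMS1 and -0.10 in RPMI. That count fell to as low as 1 when an array was left out, and moved by over 1.5 times for each array except MMS1 miR16 KO replicate 1. Of 28 lysosome and autophagy genes, 5 fell (17.9% against 6.6% of all genes) and 0 rose by limma (8 and 4 at an unadjusted p under 0.05), with ATG9A, ATP6V0D1 and SQSTM1 shared, and the 5 became 2 to 7 with single arrays left out. That count moved by over 1.5 times without MMS1 control replicate 1 or 3, MMS1 miR16 KO replicate 2 or 3, RPMI control replicate 2 or 3 or RPMI miR16 KO replicate 2 or 3.

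**Figure D5:**
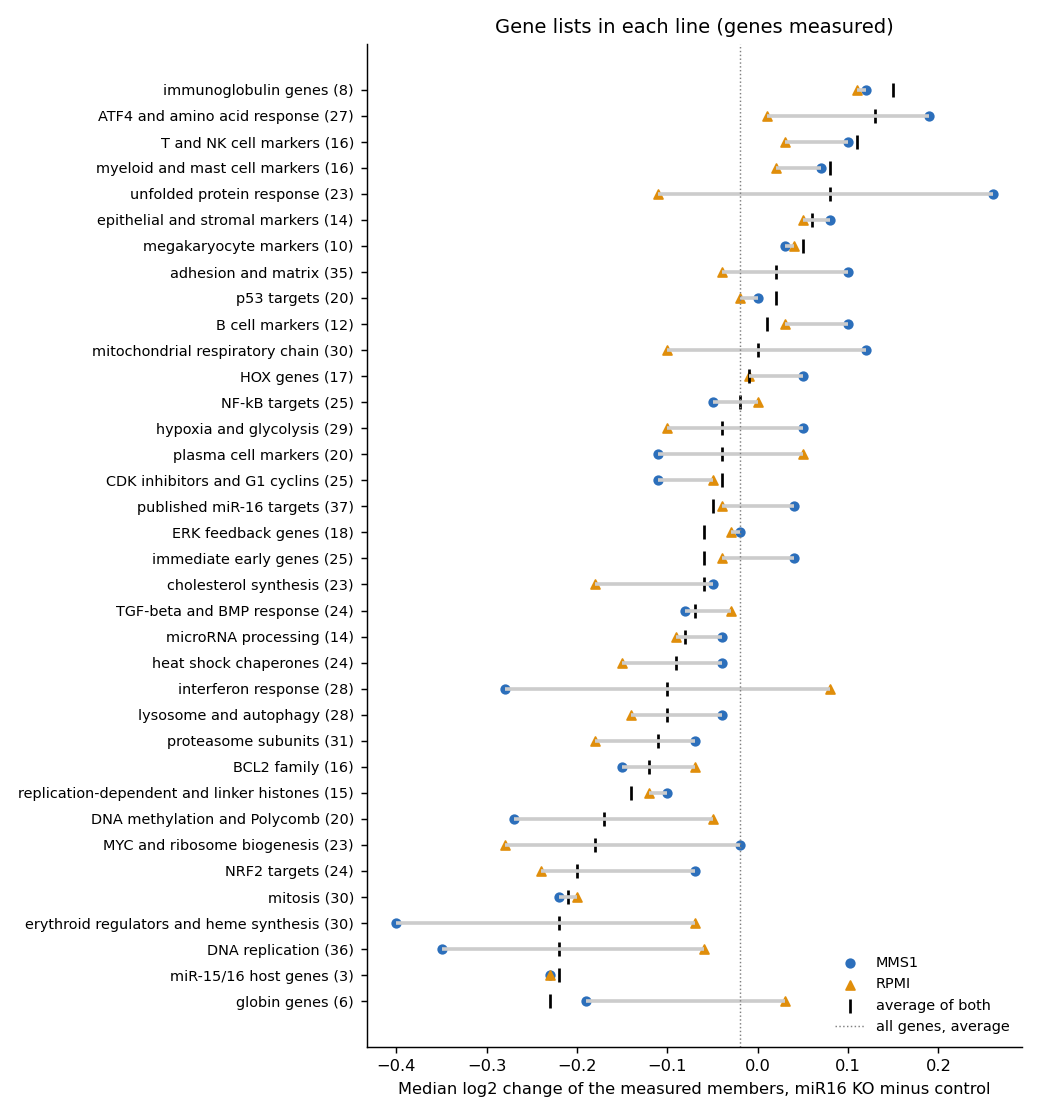
Median log2 change of the measured members of each of the 36 gene lists with the sponge, in MMS1 (blue points), in RPMI (orange triangles) and for the average (black bars), with the average over all genes as a dotted line. For mitosis the medians of the lines nearly coincide at -0.22 and -0.20, for DNA replication they stand at -0.35 and -0.06 and for MYC and ribosome biogenesis at -0.02 and -0.28.

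Some markers of other cell types rose, among them CD3D and the keratins KRT8 and KRT18, which were higher in MMS1 and not in RPMI. Of 20 plasma cell markers, 4 lay above the upper quartile of gene levels, and only SDC1 was called. It rose by 0.25 in MMS1 and 0.32 in RPMI (average limma adjusted p = 0.0384), and no member was called when any array was left out other than MMS1 miR16 KO replicate 1, RPMI control replicate 3 and RPMI miR16 KO replicate 3. Of 8 immunoglobulin genes, IGHD alone was called, with 0.54 and 0.28 and an average adjusted p of 0.00822, and none lay above the upper quartile. The summed linear signal of the plasma cell list was 3122 to 3316 in MMS1 controls and 3295 to 3621 with the sponge, and 3376 to 3551 in RPMI controls and 3528 to 3777 with the sponge. By limma 0 genes were called among 12 B cell, 16 myeloid and mast cell and 10 megakaryocyte markers. At an unadjusted p under 0.05, 4, 2 and 0 of them rose and 0 fell. Over all 19775 genes, 1443 rose and 3119 fell at that threshold. Of 16 T and NK cell markers 2 rose (12.5% against 2.24% of all genes), neither of them shared. They were CD3D (5.64 in MMS1 and -0.10 in RPMI) and CD7 (0.84 and 0.13), each with a called difference between lines. The summed linear signal of that list went from 1544 to 1727 in MMS1 controls to 6661 to 7855 with the sponge, and from 1668 to 1764 in RPMI controls to 1721 to 1837 with the sponge. Of 14 epithelial and stromal markers 3 rose (21.4%), with the epithelial factor ELF3 shared (0.70 in MMS1 and 0.36 in RPMI). The keratins KRT8 (2.60 and -0.26) and KRT18 (1.10 and -0.11) were not shared, and both had a called difference between lines. The sum of that list went from 4925 to 5268 in MMS1 controls to 11321 to 11937 with the sponge, and from 11013 to 11309 in RPMI controls to 9961 to 10672 with the sponge. With plain probe sets only, 1 T and NK cell marker and 0 epithelial and stromal markers were called higher. CD7, KRT8, KRT18 and AURKA were named after their values were seen. The part of a change in cell make-up in these results was not tested.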

How the data were processed

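The deposited table holds log2 signals, 1 per probe set and array, which the authors summarized by a method not given in the sources used here; its values run from 4.0 to 14.71 and its array medians from 5.8 to 5.9. RNA was amplified linearly in 2 rounds before it was labelled with biotin, per the labels. Of 54675 probe sets, 62 Affymetrix controls were left out and 54613 tested, with no further normalization. Names came from GEO's platform annotation, updated through RefSeq's GRCh38.p14 gene table: 41091 probe sets named 1 gene, 1801 several and 11721 none, and 42 identifiers had no match there. Each gene was represented by its brightest probe set that named it alone.

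limma 3.58.1 in R 4.3.3 was fitted with 1 mean per group and eBayes (8 residual and 4.92 prior degrees of freedom, two-sided, Benjamini-Hochberg over all probe sets), and was tested on simulated data. Tables and figures used Python 3.11.15, pandas 2.3.3 and matplotlib 3.10.9. Members, the 36 gene lists and the rules were chosen with earlier results of these data known. Genes were named by rule: the 12 shared genes each way with the largest smaller effect and no overlap between groups, genes at the limit, the 4 largest averages each way that were not shared, called targets, and up to 4 called members of lists with at least 3 shared genes. The globin, erythroid and DNA replication lists, the other shared members of lists and ACSM3 were added after their values were seen. Same-numbered arrays did not deviate together (correlations of residuals from -0.075 to 0.058 over 18 pairs), so replicate numbers are only names. Alternatives were each array left out, a replicate block, quantile normalization, median centring, brighter probe sets only, a prior variance with trend, array weights, other summaries per gene and other limits for similar size.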

Additional observations from a re-analysis of the deposited data

Results flagged for a closer look

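Named genes whose effect differed between the lines were picked out by limma's test of the RPMI effect minus the MMS1 effect, at an adjusted p under 0.05. A positive difference means that the effect in RPMI was above that in MMS1 on the signed log2 scale. Among shared genes these were HBD (0.52), DAB2 (0.73) and EGR1 (0.67), whose effects had the same sign in both lines.

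Among genes that were not shared, the largest differences belonged to genes called in MMS1 and not in RPMI. They were -5.74 for CD3D, -5.43 for KCNC2, -5.24 for SOSTDC1, -4.38 for MUC19 and -4.37 for NLRP7, which rose in MMS1, and 4.48 for MEG3, 4.43 for EXOC6B and 3.80 for MFNG, which fell there. Red cell genes followed, with 2.80 for ALAS2, the first enzyme of heme synthesis, 2.74 for the carbonic anhydrase CA1, 1.92 for HBZ, 1.70 for KLF1 and -2.62 for RHAG, the Rh-associated glycoprotein.

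Replication genes differed by 1.05 (TK1), 0.93 (MCM6), 0.91 (CDC45) and 0.74 (MCM10), each lower in MMS1. The remaining differences were 1.68 for ACSM3, 1.17 for ETS1, 1.15 for ID2, 0.65 for PURA, 0.64 for JUNB, -0.92 for JUN and -1.17 for the cytokinesis gene ANLN.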

How the results depend on the processing

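Counts moved with single arrays and with how the spread was modelled. Leaving out 1 array at a time gave 793 to 1112 probe sets higher and 1732 to 4047 lower, 305 to 440 genes higher and 841 to 1859 lower, 49 to 100 shared genes higher and 279 to 674 lower, 6 to 75 genes called alike in both lines and 421 to 680 called in the average and the line difference. Without MMS1 control replicate 3, genes lower were 841 and probe sets lower 1732. Shared genes higher were 56 without MMS1 control replicate 1, 49 without MMS1 control replicate 3 or RPMI miR16 KO replicate 2, 64 without MMS1 miR16 KO replicate 3 and 55 without RPMI control replicate 1. Shared genes lower were 297 and 280 without MMS1 control replicate 1 or 3, 279 without RPMI control replicate 3 and 303 without RPMI miR16 KO replicate 3. Between 304 and 458 of the 554 shared genes remained shared when an array was left out, and 112 were shared under every such setting and under the block, quantile, centring, trend, weight and mean-over-probe-sets alternatives.

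Quantile normalization gave 1755 probe sets and 709 genes higher, 199 of the latter shared. A prior variance with trend gave 1736 probe sets higher, 725 genes higher and 1992 lower, 183 and 718 of them shared, 202 called alike in both lines and 1018 with a line difference. Brighter probe sets only gave 667 genes higher and 2017 lower, 174 and 729 shared, 152 called alike in both lines and 986 with a line difference. The cause was not tested. Genes called alike in both lines were 22 with median centring, 58 with array weights, 29 with the mean over probe sets and 8 with the replicate block, which moved no other of these counts by over 1.5 times. Plain probe sets only gave 302 shared genes lower and turned the sign of HBB (-0.04), DAB2 (0.11), NCL (0.20), CDC25C (0.10) and MFNG (0.16). A limit of 2/3 gave 262 shared genes lower. Requiring no called line difference in place of the ratio gave 211 higher and 942 lower, and requiring a call in each line as well as the ratio gave 2 and 10.

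Signals near the lower bound of 4 limit how far a fall can be measured, and the median standard error of the average was 0.0991 over all probe sets.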

Other observations

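Over all genes 2.24% rose, 6.6% fell and 2.8% were shared. In the ATF4 and amino acid response 4 of 27 measured genes rose and 2 fell (7.41%) in the average, with CBS shared, and in the unfolded protein response 3 of 23 rose (13.0%) and 1 (4.35%), the sensor kinase EIF2AK3, fell and was shared. Hypoxia and glycolysis gave 2 of 29 higher (6.9%) and 4 lower (13.8%), with P4HA1, a collagen prolyl hydroxylase, and NDRG1 shared. Cholesterol synthesis gave 4 of 23 lower (17.4%), with the isomerase IDI1 shared, heat shock chaperones 3 of 24 lower (12.5%), with DNAJB6 and HSPE1 shared, and proteasome subunits 5 of 31 lower (16.1%), with the regulator PSME3 shared. The interferon response had 5 of 28 lower (17.9%) and no shared gene. In these last 4 lists 0 genes rose by limma, and 2, 0, 1 and 1 had a positive change at an unadjusted p under 0.05. Over all 19775 genes, 1443 did. With single arrays left out, the cholesterol count was 0 to 3 and moved by over 1.5 times for each array except MMS1 miR16 KO replicate 1. The proteasome count ran from 2 to 7 and moved as much for each array except MMS1 control replicate 2 and MMS1 miR16 KO replicates 1 and 2. The interferon count ran from 3 to 6 and moved without MMS1 control replicate 1, MMS1 miR16 KO replicate 2 or RPMI control replicate 3. The heat shock count became 7 without MMS1 miR16 KO replicate 1, and the 2 higher hypoxia genes became 1 without MMS1 control replicate 3.

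In the DNA methylation and Polycomb list 6 of 20 genes fell (30.0%) and 1 rose (5.0%), with UHRF1, which guides maintenance methylation, and JARID2, a partner of PRC2, shared and lower. The number that fell ran from 2 to 6 when single arrays were left out and moved by over 1.5 times without MMS1 control replicate 1 or 3, MMS1 miR16 KO replicate 2 or 3, RPMI control replicate 3 or RPMI miR16 KO replicate 3. Of 35 adhesion and matrix genes 7 rose (20.0%) and 2 fell (5.71%), with a median of 0.02 over the list, and the 2 that fell, vimentin (VIM) and the protease inhibitor TIMP1, were the ones shared. VIM fell by 0.50 in MMS1 and 0.47 in RPMI, and TIMP1 by 0.38 and 0.32. Among CDK inhibitors and G1 cyclins 1 of 25 rose, CDKN1C, and 4 fell, both CDKN1C and CCND2 being shared. ERK feedback genes gave 3 of 18 higher and 1 lower, the shared SPRED2. The p53 list gave 2 of 20 higher and 1 lower, the NF-kB list 2 of 25 each way, the BCL2 family 1 of 16 each way, microRNA processing 1 of 14 lower and the histones 3 of 15 lower, each without a shared gene. With single arrays left out, the ERK feedback genes that fell numbered 0 to 2, the BCL2 family 0 to 1 each way, the p53 genes that rose 1 to 3 and the NF-kB genes 2 to 4 each way. By limma 0 of 17 HOX genes and 0 of 3 host genes of miR-15/16 were called. At an unadjusted p under 0.05, 1 HOX gene rose and 1 fell, and 2 host genes fell. Over all 19775 genes, 1443 rose and 3119 fell at that threshold. With brighter probe sets only, 2 host genes were called lower.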
